A study of Rattus norvegicus with 10 samples.

Results

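Interferon-inducible genes were examined in a brainstem nucleus, the NTS (nucleus of the solitary tract), where baroreceptor and other visceral afferents end, of hypertensive and normotensive rats. The genes were Ifi44, Mx1, Mx2, Isg15, Stat2, Irf1, Irf7, Cxcl10 and Cxcl11, 9 of 14217 genes named on the array. A probe set, the group of short oligonucleotides that yields 1 signal, counted as a member when the platform's annotation gave 1 of these symbols and no other, which gave 11 probe sets: 2 each for Stat2 and Mx2 and 1 for every other gene. The 2 probe sets of a gene share their target and are not independent. All animals were male and aged 10 to 13 weeks, and no allele or treatment besides the strain is named. One group was the spontaneously hypertensive rat (SHR), which is inbred and becomes hypertensive with age, and the other was the Wistar-Kyoto rat (WKY), its usual normotensive control. Each had 5 Affymetrix Rat 230 2.0 arrays. The design text treats each array as a biological replicate, while the sample descriptions name 5 animals, so an array may hold a pool, and p-values cover the spread among these arrays, whichever it is. The comparison asked which of these genes differ between the strains, and whether they move together or in opposite directions.

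Interferons are secreted proteins that cells release on sensing foreign nucleic acid. Type I interferon acts through a receptor and the kinases JAK1 and TYK2 to assemble a complex that holds STAT2 and IRF9 and binds a DNA element, the interferon-stimulated response element, in front of antiviral genes such as Mx1, Isg15 and Ifi44. Interferon-gamma acts through gamma-activated sequences and induces Irf1. In the brain, microglia, astrocytes, endothelium and neurons can all respond, and CXCL10 and CXCL11 attract T cells that carry the receptor CXCR3.

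The 2 members called went in opposite directions. Taken on signal + 16, Ifi44 was 1.93-fold lower in SHR and Cxcl11 1.6-fold higher. For both, the 5 SHR arrays did not overlap the 5 WKY arrays. Cxcl11 passed the filter on dim signals through SHR alone, and its call ended in several other fits given below, whereas that of Ifi44 held. The remaining members tested, Mx1, Mx2, Isg15, Stat2, Irf1 and Irf7, did not pass the threshold on any of their 8 probe sets, and Cxcl10 was too dim for the filter. Differences are given as SHR minus WKY on the log2(signal + 16) scale, which understates the change of dim probe sets, and means ± SD (n = 5) on the linear signal. A difference was called when its limma p, adjusted by Benjamini-Hochberg over all 18846 probe sets tested, was below 0.05. Of these, 4.26% were called, 2.06% higher and 2.2% lower in SHR, and for 6.13% the strains did not overlap. Of the 10 member probe sets that passed the filter on dim signals, 1 was called higher and 1 lower, 4 had differences above 0 and 6 below, and the median difference was -0.08 against 0.02 over all probe sets. Since a probe set that is bright in 1 strain only can pass the filter through that strain, these counts are a description. An unadjusted p under 0.05 was found for 2 of the 10, against 21% of all probe sets.

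**Figure D1:**
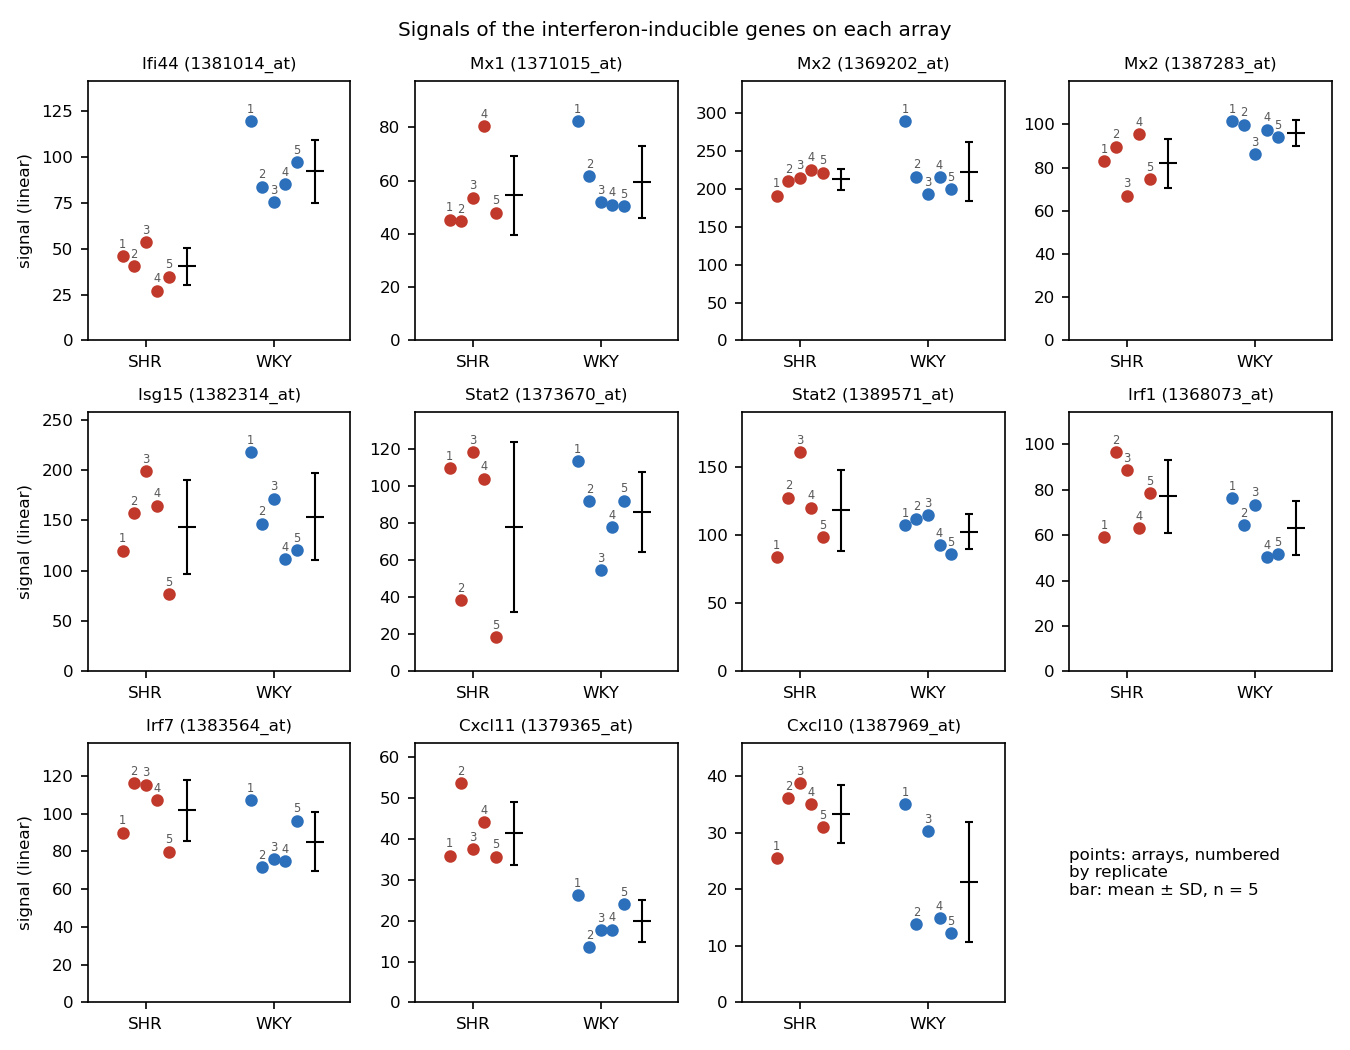
Linear signal of each of the 11 member probe sets on the 10 arrays (red SHR, blue WKY, small numbers are replicates), with mean ± SD of each strain (n = 5) as a black bar. Ifi44 lies between 27.1 and 53.7 in SHR and between 75.6 and 119.8 in WKY, Cxcl11 between 35.7 and 53.7 against 13.5 and 26.3, and the strains overlap in every other panel.

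The arrays had been scaled to 1 trimmed mean, but the SHR arrays had median signals of 44.2 to 49.8 and the WKY arrays of 39.6 to 45.7, highest in SHR 3 and SHR 2 and lowest in WKY 5 and WKY 4. The 3' to 5' signal ratio of the Gapdh control, a sign of RNA integrity, was 1.12 to 1.34 in SHR and 1.07 to 1.2 in WKY, that of beta-actin was 2.26 to 3.92 and 2.64 to 3.54, and that of hexokinase was 2.22 to 20.2 and 9.17 to 21.3. Of 16 markers fixed for the NTS and caudal hindbrain, 10 were bright enough to test, among them the noradrenergic enzymes Th (416 ± 19.1 in SHR and 477 ± 67.8 in WKY) and Dbh (272 ± 28.7 and 334 ± 51.1). Of the 10, 8 had differences below 0 and 1 was called lower, the neuropeptide gene Prlh (-0.42; adjusted p = 0.0379), and their summed signal was 3301 to 3643 in SHR and 3584 to 4699 in WKY. Other cell type markers called were Vwf (-0.52), 1 of 9 tested for endothelium, and Snap25 (0.33), 1 of 8 for neurons. For choroid plexus and meninges 2 of 8 were called, Sostdc1 (0.47) and Enpp2 (0.28). Differences lay above 0 for 5 of the 9 endothelial markers, 7 of 8 for neurons and 7 of 8 for choroid plexus and meninges. Without passing, Pecam1 (0.40), Tie1 (0.36) and Slco1c1 (0.25) went opposite to Vwf, and Col1a2 (-0.66) opposite to Sostdc1 and Enpp2.

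Ifi44 encodes an interferon-induced cytoplasmic protein that restricts the growth of some viruses. Its probe set (1381014_at) read 46.1, 40.4, 53.7, 27.1 and 34.8 on the SHR arrays 1 to 5 and 119.8, 83.9, 75.6, 85.2 and 97.5 on the WKY arrays 1 to 5. The highest SHR array was therefore well below the lowest WKY array. The means were 40.4 ± 10.2 and 92.4 ± 17.2, the log2 difference was -0.95 ± 0.14 (SE), with a 95% interval of -1.24 to -0.66, and the adjusted p was 0.000486 in limma. In bulk tissue, fewer cells of a type and less RNA per cell cannot be told apart. Among 12 markers of microglia and macrophages that were tested, 5 were also lower in SHR and 0 higher (41.7% against 3.98% of all 10668 genes tested): Aif1 (-0.52), C1qa (-0.42), C1qb (-0.46), Ctss (-0.28) and Lyz2 (-0.40). A second probe set of Aif1, fitted without the filter, differed by 0.51 ± 0.20 and did not pass. Cx3cr1, the 1 marker of the 12 with a difference above 0, had 45.1 ± 12.4 in SHR and 37.0 ± 7.03 in WKY. Its difference of 0.19 ± 0.15 did not pass. The summed signal of the 12 was 2541 to 2705 in SHR and 3098 to 3412 in WKY. Bright markers weigh most in that sum. Ctss averaged 1008 in SHR and 1222 in WKY and C1qa 431 and 584, and both are among the 5 called. The sum is therefore not separate from those calls. The 12, of 17 listed, had passed the filter on dim signals, so the dimmest markers are not among them. The part of these cells in the Ifi44 result was not tested.

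Ifi44l, the paralog of Ifi44, is its neighbour on chromosome 2 in the RefSeq table of assembly GRCr8, and is described here because of that position. Its signals were 18.6, 19.6, 50.6, 18.3 and 20.3 on SHR arrays 1 to 5 and 45.9, 39.9, 41.3, 32.5 and 39.0 on WKY arrays 1 to 5. The values of 4 SHR arrays lay below all WKY arrays, whereas SHR 3 lay above all of them. The log2 difference was -0.47 ± 0.18 and did not pass (adjusted p = 0.133), while without SHR 3 it was -0.66 ± 0.13 (adjusted p = 0.0076). SHR 3 was also the highest SHR array for Ifi44. Adgrl4, an adhesion receptor of endothelium on the other side of Ifi44, averaged 75.2 ± 11.8 in SHR against 61.6 ± 9.0 in WKY, and its difference of 0.23 ± 0.12 missed the threshold (adjusted p = 0.263).

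Cxcl11 encodes a chemokine that binds CXCR3 and is induced by interferon-gamma. On SHR arrays 1 to 5 its probe set (1379365_at) read 35.9, 53.7, 37.6, 44.0 and 35.7, and on WKY arrays 1 to 5 it read 26.3, 13.5, 17.7, 17.8 and 24.1. All SHR values stood above all WKY values, with SHR 2 the highest and WKY 2 the lowest. The log2 difference was 0.68 ± 0.15 (95% interval 0.37 to 0.99; adjusted p = 0.0119), from means of 41.4 ± 7.67 and 19.9 ± 5.19. The probe set reached the 40th percentile of its array on 5 of 5 SHR arrays and on 0 of 5 WKY arrays, so it passed the filter through SHR alone. Without the filter the adjusted p was 0.026, and there the call ended without SHR 2, SHR 4, WKY 2, WKY 3 or WKY 4 (0.61 to 0.66; adjusted p from 0.0572 to 0.0736). The call ended with the median signal as a covariate (0.65 ± 0.19; adjusted p = 0.169). The offset added before log2 moved the difference from 0.33 with 64 to 1.04 with 1, and both passed.

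Cxcl10 encodes the other CXCR3 ligand of the set and lies next to Cxcl11 on chromosome 14. Its probe set (1387969_at) read 25.5, 36.1, 38.8, 35.1 and 31.0 in SHR and 35.1, 13.8, 30.3, 14.9 and 12.2 in WKY, arrays 1 to 5. WKY 1 and WKY 3 fell within the SHR range, and the other WKY arrays lay below it. The means were 33.3 ± 5.19 and 21.3 ± 10.6. Only 4 of 10 arrays reached the 40th percentile, so Cxcl10 was not tested with the filter. In the fit without it the log2 difference was 0.44 ± 0.18 (95% interval 0.05 to 0.83) and did not pass (limma adjusted p = 0.215). With the median signal as a covariate it was 0.09 ± 0.21.

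Cxcl9, the third CXCR3 ligand and the next gene on chromosome 14, was too dim for the filter on both of its probe sets, which differed by 0.28 ± 0.15 and -0.0025 ± 0.20 without it. The receptor gene Cxcr3 averaged 37.3 ± 12.1 in SHR against 33.0 ± 7.94 in WKY, with a difference of 0.11 ± 0.16 (adjusted p = 0.755). T cell markers were mixed: Lck, a T cell kinase gene, passed the filter with 84.9 ± 11.5 in SHR against 86.6 ± 8.15 in WKY (-0.03 ± 0.098; adjusted p = 0.901), while the brighter probe set of Cd3e, part of the T cell receptor complex, had 23.2 ± 4.71 in SHR and 15.7 ± 4.98 in WKY and did not pass the filter, and neither did those of Cd3d, Cd3g and Cd8a. Of 19 leukocyte markers 4 were tested, with a summed signal of 265 to 326 in SHR and 266 to 298 in WKY. Of the 4, Cd4 was called higher (0.52; limma adjusted p = 0.0185), and rat macrophages carry it as well as T cells. Coro1a was lower in SHR without overlap of the strains and was not called (-0.27 ± 0.083; adjusted p = 0.0756). Of the 4 differences 2 lay above 0 and 2 below. The brighter probe set of the leukocyte marker Ptprc did not pass the filter, with 24.5 ± 8.22 in SHR and 32.0 ± 3.05 in WKY. Other probe sets were much dimmer: that of Cd3d averaged 2.08 in SHR and 4.34 in WKY. The dimmer probe set of Cd3e averaged 5.08 and 4.00, and the dimmer one of Ptprc 2.43 and 3.02. No signal was set against background, so whether these transcripts were present was not determined. The part of these markers in the Cxcl11 result was not tested.

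**Figure D2:**
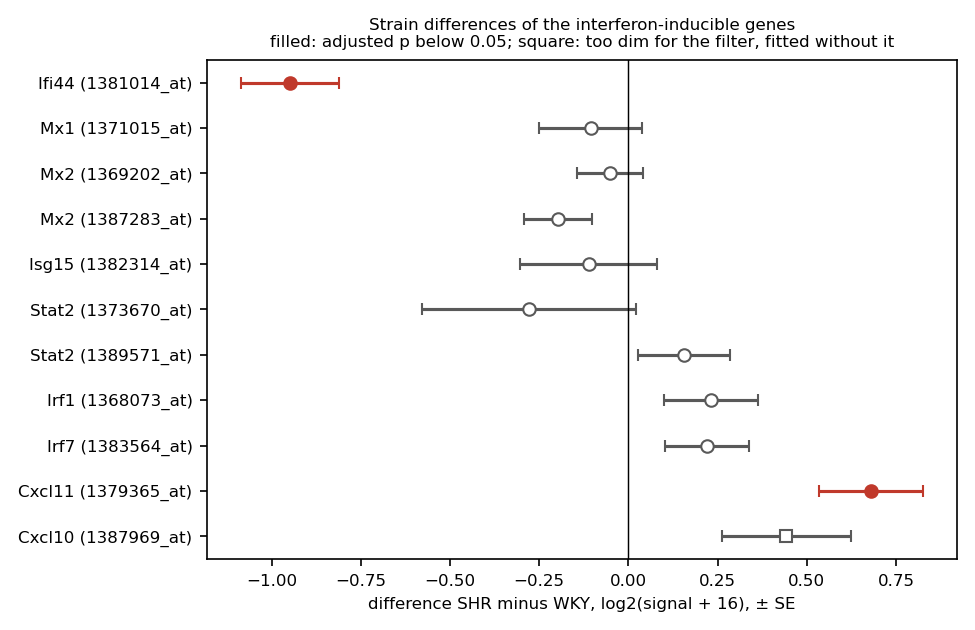
Log2 difference SHR minus WKY with its standard error for each member probe set, ordered by role (effectors, signalling and transcription factors, chemokines). Filled points passed the threshold: Ifi44 at -0.95 and Cxcl11 at 0.68. The square marks Cxcl10 (0.44), fitted without the filter.

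The other antiviral effectors showed smaller differences. Mx1 and Mx2 are dynamin-like GTPases that block viruses in the nucleus and the cytoplasm, and they lie on chromosome 11 with 1 gene, Fam3b, between them. Mx1 (1371015_at) read 45.4, 44.9, 53.6, 80.3 and 47.9 in SHR and 82.3, 61.5, 51.8, 51.0 and 50.4 in WKY. SHR 4 and WKY 1 were high and all other arrays lay between 44.9 and 61.5. The log2 difference was -0.10 ± 0.14 (95% interval -0.41 to 0.20; adjusted p = 0.720).

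The brighter probe set of Mx2 (1369202_at) was at 191 to 226 in SHR, and WKY 1, at 290.1, stood above the other WKY arrays at 193 to 217. Its difference was -0.05 ± 0.092 (95% interval -0.25 to 0.14; adjusted p = 0.795). The dimmer one (1387283_at) was at 67.0 to 95.6 in SHR and 86.3 to 101.6 in WKY, with a difference of -0.20 ± 0.095 (adjusted p = 0.245). Both Mx2 probe sets thus had small differences below 0, neither of which passed.

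Isg15 encodes a ubiquitin-like protein that is attached to other proteins after interferon. It read 120.1, 157, 199, 164 and 77.0 in SHR and 218, 147, 172, 111 and 121 in WKY, and the strains overlapped over most of their range. The difference was -0.11 ± 0.19 (95% interval -0.52 to 0.29; adjusted p = 0.786). SHR 5 was the lowest array, and without it the difference was 0.07 (adjusted p = 0.826). With the median-signal covariate it was -0.70 ± 0.17 (adjusted p = 0.0629). Leaving out SHR 2 and SHR 3 together gave -0.33 ± 0.20 (adjusted p = 0.441). Its size therefore varied widely with the setting, and it passed in none of these fits.

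The transcription factors gave no call either. Stat2, a subunit of the interferon-activated complex, had 2 probe sets that disagreed in sign. The first (1373670_at) read 109, 38.5, 118, 104 and 18.4 in SHR and 113, 91.9, 54.5, 77.6 and 92.1 in WKY. SHR 5 and SHR 2 were far below the other SHR arrays, and the difference was -0.28 ± 0.30 (95% interval -0.91 to 0.36; adjusted p = 0.631). The second (1389571_at) read 83.8, 127, 161, 120.0 and 98.4 in SHR against 107, 112, 115, 92.6 and 86.2 in WKY, with a difference of 0.16 ± 0.13 (adjusted p = 0.517). SHR 2 was among the lowest arrays on the first and among the highest on the second, so the 2 probe sets did not rank the arrays alike. The sign of the first turned without SHR 5 (0.036) and that of the second with the median-signal covariate (-0.18).

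Irf7, which drives the amplification of type I interferon, read 89.9, 116, 115, 107 and 79.8 in SHR and 107, 71.6, 75.7, 74.8 and 96.2 in WKY. WKY 2, WKY 3 and WKY 4 lay below every SHR array, while WKY 1 and WKY 5 lay within the SHR range. The difference was 0.22 ± 0.12 (95% interval -0.03 to 0.47; adjusted p = 0.301). Irf1, the factor induced by interferon-gamma, read 59.0, 96.6, 88.5, 63.0 and 78.5 in SHR and 76.2, 64.3, 73.3, 50.2 and 51.5 in WKY. Its difference was 0.23 ± 0.13 (95% interval -0.05 to 0.51; adjusted p = 0.336), and -0.08 ± 0.14 with the median-signal covariate. The highest Irf1 arrays, SHR 2 and SHR 3, were those with the highest median signals.

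Whether members rose and fell together was also examined between arrays of 1 strain. For each of the 10 member probe sets tested, the array's deviation from its strain mean was taken, so that the strain difference plays no part. Of the 45 pairs of probe sets 40 had a Pearson r above 0, with a median r of 0.34. The standard error of that median, from leaving out 1 array at a time (jackknife), was 0.24. Among all pairs of tested probe sets 50.3% had an r above 0, with a median of 0.003. The 45 pairs share 10 probe sets and 10 arrays and are not independent, so their count is a description. Within WKY alone the median r was 0.51 (38 of 45 pairs above 0) and within SHR 0.27 (35 of 45), each over 5 arrays. After quantile normalization, which removes differences in median signal, it was 0.27, with 35 of 45 pairs above 0. WKY 1 lay above its strain mean on 10 of 10 member probe sets, and without it the median r was 0.11, with 30 of 45 pairs above 0. The choroid plexus transcript Ttr was also highest on WKY 1, at 182 against 26.9 to 62.2 on the other WKY arrays. The part of that tissue in the shared deviation was not tested.

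**Figure D3:**
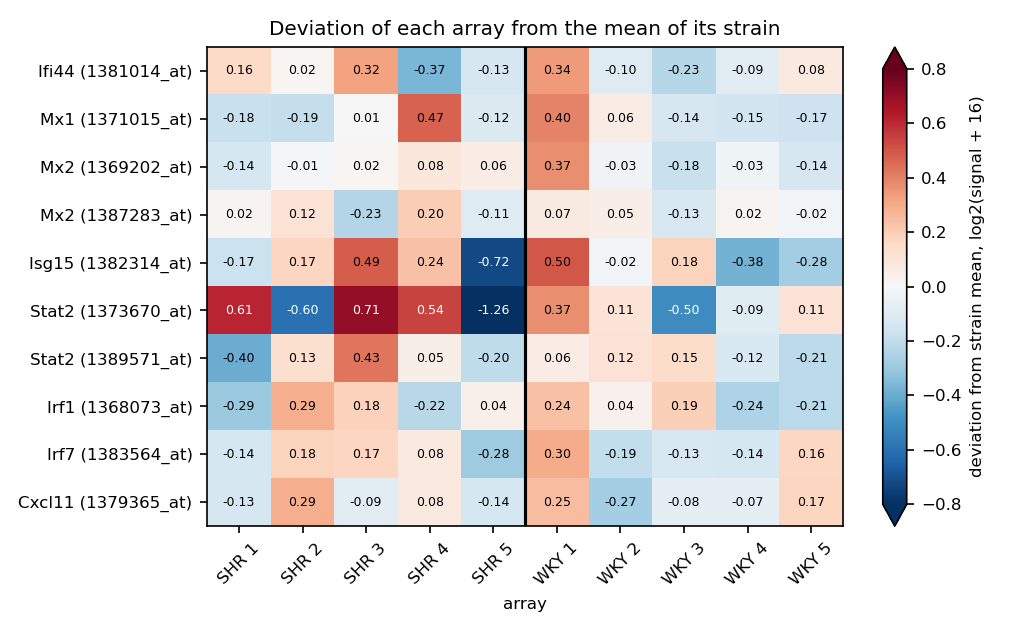
Deviation of each array from the mean of its strain on the log2(signal + 16) scale for the 10 member probe sets tested; red is above and blue below the strain mean, and the black line separates SHR from WKY. WKY 1 is above its strain mean in all 10 rows and SHR 5 below in 8.

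The pair with the largest r was Cxcl11 and Irf7, at a Pearson r of 0.83 and a Spearman rho of 0.81 over the 10 arrays. Its exact permutation p within strains was 0.00764 for r and 0.0117 for rho, and 0.172 and 0.465 after adjustment over the 45 pairs. Without SHR 2 and WKY 1, the arrays farthest from the median of Cxcl11, r was 0.72. Mx1 and the brighter Mx2 probe set followed, with an r of 0.75 and a rho of 0.66 (exact permutation p = 0.00451 and 0.0265, adjusted 0.172 and 0.465), and 0.40 without SHR 4 and WKY 1. That relation rests in large part on those arrays. In all, 5 of the 45 pairs had an unadjusted p under 0.05 and 0 an adjusted p below it. Ifi44 and Cxcl11, which differed in opposite directions between the strains, had an r of 0.25 within strains (exact permutation p = 0.497). Without WKY 1 it was 0.0089.

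Among all named probe sets tested, those whose deviations were most like Ifi44 belonged to the cation transporter gene Slc22a3 (r = 0.94 over the 10 arrays), the synaptotagmin gene Syt4 (r = 0.93) and the ubiquitin ligase gene Rnf103 (r = 0.91). Those most like Cxcl11 belonged to Fbxw2 (r = 0.89), Reck (r = 0.86) and the alarmin gene Il33 (r = 0.84). All points of these values share the arrays and their scaling, and the 3 highest among so many probe sets are high by selection. None of these genes passed the threshold between the strains.

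The other genes of the pathway were taken from 8 lists by role, with 160 genes in all, of which 116 had a probe set of their own and 84 were bright enough to test on the brightest probe set of each gene. Of the 84, 1 was higher in SHR and 0 were lower, 1.19% against 3.98% of all genes tested. An unadjusted limma p under 0.05 was found for 20 of them (23.8%, against 20.1% of all genes), 49 had differences above 0 (58.3% against 50.5%), and their median difference was 0.056 against 0.0020.

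At the top of the pathway, probe sets of the interferon genes Ifnb1, Ifnk and Ifng did not pass the filter. The 14 receptor and JAK-STAT genes tested held 0 calls: the type I receptor chains Ifnar1 and Ifnar2 differed by 0.16 ± 0.12 and -0.06 ± 0.11, the interferon-gamma receptor chains Ifngr1 and Ifngr2 by -0.16 ± 0.075 and 0.11 ± 0.086, and Irf9, which binds DNA beside STAT2, by 0.06 ± 0.10. Of the other interferon regulatory factors, Irf2 differed by -0.38 ± 0.15, Irf8 by -0.07 ± 0.13 and Irf3 by -0.0075 ± 0.088, and none of these passed. The same list held the IRF2-binding protein genes Irf2bp1, Irf2bp2 and Irf2bpl, at -0.05 ± 0.11, -0.22 ± 0.084 and -0.08 ± 0.065, which did not pass either. The 7 sensors and adaptors ran from -0.15 to 0.18 with 0 calls.

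Among 34 antiviral effectors and other interferon-induced genes, Sp110, a nuclear body protein induced by interferon, was the gene that passed. It had 84.1 ± 5.87 in SHR and 59.7 ± 8.50 in WKY, and the lowest SHR array (75.4) stood above the highest WKY array (69.9). The log2 difference was 0.41 ± 0.099 (limma adjusted p = 0.0253). Its second tested probe set differed by 0.34 ± 0.15 without the filter and did not pass there (adjusted p = 0.255). Leaving out 1 array ended the call in 5 of 10 cases: without SHR 2, SHR 3, WKY 2, WKY 4 or WKY 5 the difference was 0.37 to 0.41. It also ended without both SHR 2 and SHR 3 (0.36; adjusted p = 0.119) and with the median-signal covariate (0.26; adjusted p = 0.463).

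Nearest to the threshold after Sp110 came Psmb8, a subunit of the immunoproteasome, with 59.4 ± 3.62 in SHR against 44.3 ± 3.19 in WKY (difference 0.32 ± 0.098; adjusted p = 0.0716). Its strains did not overlap. Nmi, a protein that binds STAT factors, did not overlap either and had 28.6 ± 2.92 and 40.3 ± 5.67 (-0.33 ± 0.12; adjusted p = 0.129). The ubiquitin protease gene Usp25 differed by -0.42 ± 0.13, Parp14 and Parp12 of the ADP-ribosyltransferase family by 0.36 ± 0.11 and -0.44 ± 0.16, the ubiquitin ligase gene Arih1 by 0.31 ± 0.099 and the RNA-editing enzyme gene Adar by 0.32 ± 0.12, with overlapping strains and adjusted p-values from 0.0777 to 0.130. Other probe sets of these genes were fitted without the filter. For Arih1, those at 0.36 ± 0.12 and 0.29 ± 0.13 had the same sign and a very dim one, at -0.38 ± 0.15, the opposite sign. On the one at 0.36 the strains did not overlap. Those of Adar differed by 0.14 ± 0.12 and 0.12 ± 0.089, less than the first. A dim one of Parp14 differed by -0.04 ± 0.18, opposite to the first, and a dim one of Nmi by -0.11 ± 0.14. None of these passed. A dim second probe set of Usp25 differed by 0.20 ± 0.15, opposite to the first. The 34 effectors ran from -0.47 for Ifi44l to 0.41 for Sp110, with 20 above 0 and 14 below. Helz2, a helicase-like gene, differed by 0.29 ± 0.11 without overlap of the strains, Oasl by 0.28 ± 0.12, Ifit1 by 0.27 ± 0.15, Bst2 by 0.25 ± 0.096, Rsad2 by -0.06 ± 0.15, Oas1a by -0.0010 ± 0.13 and Eif2ak2 by -0.099 ± 0.096, and none of these passed. The enzymes that attach and remove Isg15 also gave 0 calls, with Uba7 at 0.14 ± 0.11, Ube2l6 at 0.21 ± 0.12 and Usp18 at 0.21 ± 0.14.

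**Figure D4:**
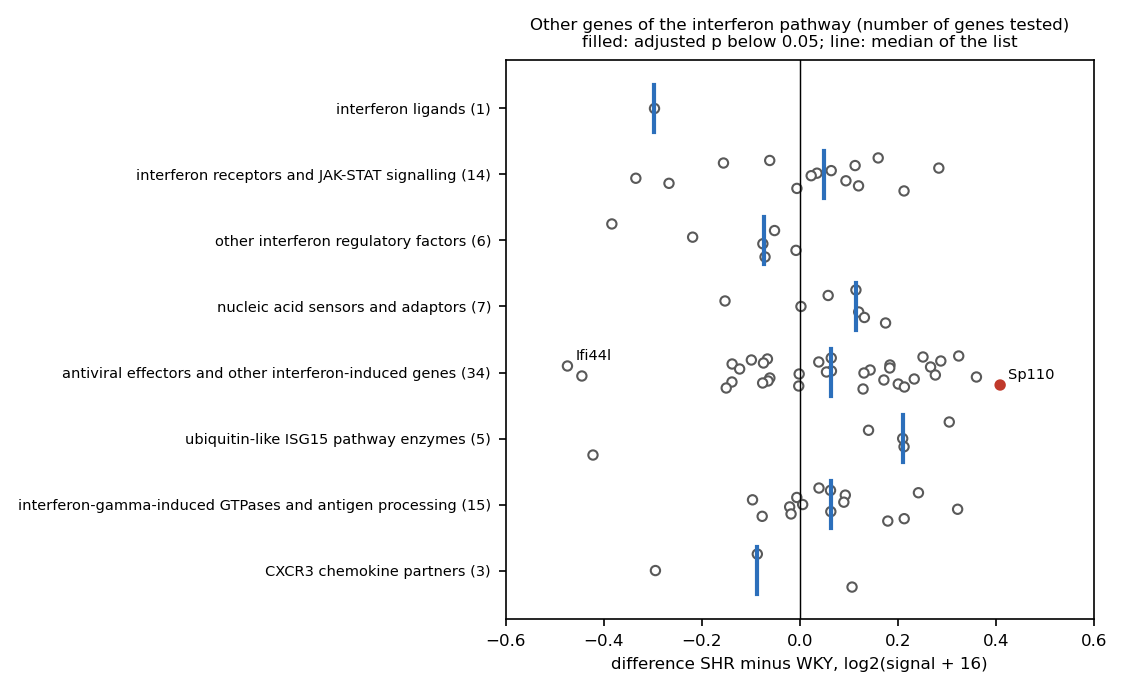
Log2 difference SHR minus WKY of each gene tested in the 8 pathway lists, with the number tested in brackets and a blue line at the median of the list; Usp18 stands in 2 lists. Sp110 at 0.41 is the filled point that passed, and Ifi44l at -0.47 has the lowest value without passing.

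Promoters of the members were compared to describe what they share in sequence. The comparison is no test of the strain differences, and the call of Cxcl11 did not hold in every fit. RefSeq's GRCr8 promoter table, with 250 bases before and 50 after each start, held 7 of the 9 members. Isg15 and Mx2 were not in it. The interferon-stimulated response element was searched as TTTC, then 2 bases of any kind, then TTTC, and the gamma-activated sequence as TTCNNNGAA, and after the sequences had been read a site for NF-kappa-B, the inflammatory transcription factor, was added as GGGAAA followed directly by TTCC, each on both strands with N for any base. No 2 matches in the members overlapped. The 250 bases before the start of Ifi44, Irf7, Cxcl11 and Cxcl10 are given 5' to 3' on the gene's own strand, with matches in capitals, since these 4 are the lower gene, another member with the same element, the higher gene and its neighbour.
Ifi44, chr2:243303841-243304090, minus strand: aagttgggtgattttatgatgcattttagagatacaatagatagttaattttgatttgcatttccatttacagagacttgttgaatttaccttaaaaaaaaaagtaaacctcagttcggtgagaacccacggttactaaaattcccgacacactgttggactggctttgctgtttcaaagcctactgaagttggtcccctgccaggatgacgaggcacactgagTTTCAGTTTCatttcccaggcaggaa
Irf7, chr1:205800024-205800273, minus strand: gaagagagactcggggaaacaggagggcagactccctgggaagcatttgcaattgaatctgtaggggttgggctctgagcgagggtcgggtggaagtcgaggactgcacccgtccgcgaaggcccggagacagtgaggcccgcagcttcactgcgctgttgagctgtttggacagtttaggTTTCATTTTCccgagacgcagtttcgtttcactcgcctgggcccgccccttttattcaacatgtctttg
Cxcl11, chr14:15973478-15973727, plus strand: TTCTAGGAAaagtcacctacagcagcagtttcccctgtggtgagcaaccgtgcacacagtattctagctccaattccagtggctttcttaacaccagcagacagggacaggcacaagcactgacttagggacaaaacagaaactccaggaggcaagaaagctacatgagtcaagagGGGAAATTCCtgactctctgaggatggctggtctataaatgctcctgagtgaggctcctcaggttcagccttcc
Cxcl10, chr14:15988816-15989065, plus strand: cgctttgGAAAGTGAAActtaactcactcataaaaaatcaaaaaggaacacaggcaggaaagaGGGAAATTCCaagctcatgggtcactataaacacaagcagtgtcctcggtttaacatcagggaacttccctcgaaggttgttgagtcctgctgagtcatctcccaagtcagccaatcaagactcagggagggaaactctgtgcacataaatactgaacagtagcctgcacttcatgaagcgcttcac

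Ifi44 held 2 matches to the interferon-stimulated response element, TTTCAGTTTC at 26 to 17 bases before the start, and TTTCGTTTTC at 27 to 36 bases after it, past the end of the stretch given. Irf7 held 1, TTTCATTTTC, at 69 to 60 bases before the start, and Cxcl10 held 1 on the opposite strand, which reads GAAAGTGAAA on its own strand, at 243 to 234 bases before it. The window of Cxcl11 had no match to these letters. Among all 33469 promoters listed, 3.92% held this element, against these 3 of 7 members. The gamma-activated sequence was found in Cxcl11, at the far end of its window, and in Irf1 (TTCCCCGAA, 142 to 134 bases before the start), 2 of 7 members against 8.87% of all promoters. The NF-kappa-B letters stood in Cxcl11, 74 to 65 bases before the start, and in Cxcl10, 187 to 178 bases before it, and in 0.111% of all promoters (37). These letters, with no free base, were set after the sequences had been read, so that share does not measure how unusual the matches are. Mx1 and Stat2 had no match to any of the 3 in these windows. A match is a run of letters in the reference genome, and the binding of a factor there was not measured.

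**Figure D5:**
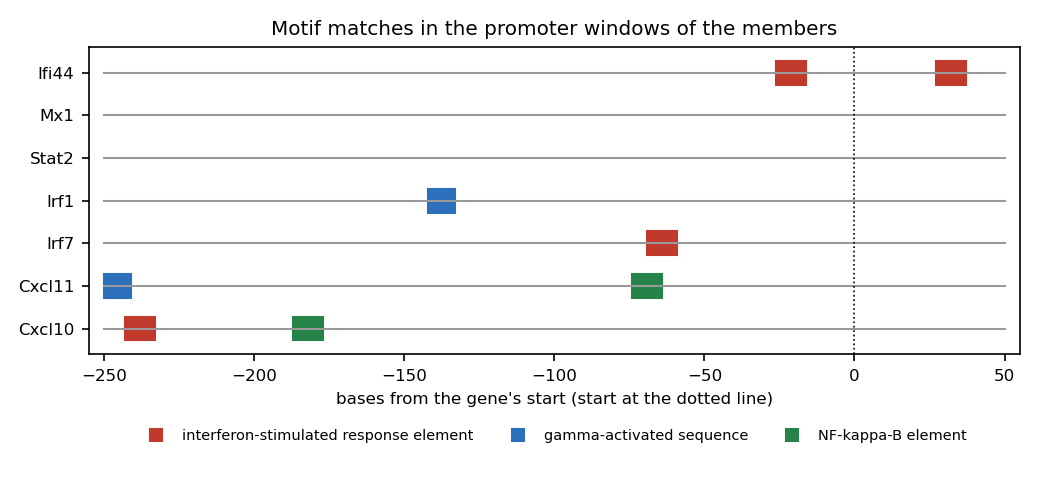
Positions of the motif matches in the promoter windows of the 7 members in the table, in bases from the gene's start (dotted line); red marks the interferon-stimulated response element, blue the gamma-activated sequence and green the NF-kappa-B element. Ifi44 has 2 red marks near its start, and Cxcl11 and Cxcl10 share a green mark.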

How the data were processed

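Per the labels, NTS total RNA went through Ambion's MessageAmpII amplification before hybridisation to 1-colour Affymetrix arrays. The deposited values are intensities on a linear scale, 1 per probe set. The submitters' processing notes name GCOS 1.2. From the values, the authors scaled every array to the same mean after trimming 2% at each end. The sources used here do not give background correction, summarisation or detection calls. No signal was therefore set against background, and the number of arrays limits precision.

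Titles gave the strain of each sample, 5 SHR and 5 WKY. Fits excluded 57 control probe sets. log2(signal + 16) was used without further scaling, and the filter kept probe sets that on 5 or more of 10 arrays were at or above the 40th percentile of the array (18846 of 31042). limma 3.58.1 in R 4.3.3 (lmFit, eBayes with an intensity trend) was fitted with strain as the single term, and was tested on simulated data. No pair of arrays shared more than 2 identical values.

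Symbols of the platform annotation were updated through Entrez identifiers to RefSeq's GRCr8 table: 20826 probe sets had 1 symbol, 436 several and 9780 none. No member's symbol changed. Named were all member probe sets; pathway genes past the threshold, filled up to 8 by unadjusted p; the 3 probe sets most like each called member; and called or defining markers of cell types. Ifi44l, Adgrl4, Cxcl9, the receptors, Lck and the effectors and regulatory factors that were not nearest the threshold were named after values were seen. So were the uncalled cell type markers Pecam1, Tie1, Slco1c1, Col1a2 and Coro1a. Members and lists were chosen with earlier results of these data known. Alternatives were other scalings, offsets of 1 and 64, no filter or one at the 60th percentile, other variance models, weighted arrays, a block for the replicate number, a median-signal covariate, and arrays left out. Other settings for the co-variation, for the pathway genes, and no filter combined with these choices for Cxcl11 and Cxcl10 were added after seeing the data.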

Additional observations from a re-analysis of the deposited data

Results flagged for a closer look

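On the brighter Mx2 probe set, WKY 1 stood apart from its strain with a signal of 290.1, against 193 to 217 on the other WKY arrays. Without WKY 1 the log2 difference of this probe set changed sign, to 0.041 ± 0.074 (limma adjusted p = 0.797). WKY 1 was also the highest WKY array for Ifi44, Mx1, Isg15, Irf7, Irf1 and Cxcl11.

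For Ifi44l, SHR 3 stood apart with a signal of 50.6, against 18.3 to 20.3 on the other SHR arrays. Each strain was examined for 24 probe sets, 48 groups of 5 in all, and 2 were marked in this way, where chance marks about 1 in 20 groups.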

How the results depend on the processing

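The log2 difference of Ifi44 stayed below 0 and past the threshold in all 22 alternatives, from -1.19 to -0.58 across settings and from -1.03 to -0.86 with 1 array left out. That of Cxcl11 stayed above 0 throughout, but its call ended with the median-signal covariate (0.65; adjusted p = 0.169). Without the filter its call also ended when combined with that covariate (0.65; adjusted p = 0.259), without both SHR 2 and SHR 3 (0.61; adjusted p = 0.094), with the replicate block (0.68; adjusted p = 0.069) and with quantile normalization (0.55; adjusted p = 0.0747). With 1 array left out it was 0.61 to 0.74, and in the fits without the filter the call ended without SHR 2 or WKY 2 (0.61 each) and without SHR 4, WKY 3 or WKY 4 (0.66 each; adjusted p over the 5 from 0.0572 to 0.0736). The probe set no longer reached the filter without any 1 SHR array, without both SHR 2 and SHR 3, or at the 60th percentile, so the count of members called higher was 0 in those fits and with the covariate, and 0 to 1 with 1 array left out. The count called lower was 1 in every fit. Signs turned for Stat2 with the covariate (-0.18) and without both SHR 2 and SHR 3 (-0.028) on 1 probe set, and for Irf1 with the covariate (-0.085). With 1 array left out, the other Stat2 probe set ranged from -0.46 to 0.036, the brighter Mx2 probe set from -0.096 to 0.041 and Isg15 from -0.23 to 0.070, with 0.014 without WKY 1. The causes were not tested.

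Of 18846 probe sets 388 were higher and 415 lower, and with 1 array left out 213 to 441 and 226 to 504. The higher count was 249 with the filter at the 60th percentile, 190 without both SHR 2 and SHR 3, 84 with the covariate (123 lower) and 585 with the replicate block (629 lower). Quantile normalization gave 40.1% of its calls higher, against 48.3%. Other pathway genes called higher were 2 without the trend and with array weights, and 0 with the covariate and without both SHR 2 and SHR 3. Those called lower were 1 with quantile normalization, without the trend, with array weights and without both SHR 2 and SHR 3, and 2 with the replicate block. With 1 array left out they were 0 to 2 higher and 0 to 1 lower. The replicate numbers share only a number: the deviations of same-numbered arrays correlated at 0.038 to 0.28. The median r of the co-variation was 0.27 to 0.43 across settings and 0.11 to 0.41 with 1 array left out.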
